A study of Mus musculus with 4 samples.

Results

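The cytosolic ribosomal proteins, the protein components of the ribosome that translates nuclear-encoded messenger RNA, were compared between cardiomyocytes overexpressing RBFOX2 and control cardiomyocytes. Genes were taken by symbol: Rpl or Rps followed by a number, Rpsa, Rplp0, Rplp1 and Rplp2, leaving out names containing -ps and the kinases named Rps6k. This gave 92 of the 48316 gene names in the authors' table. Of these, 77 were the components of the ribosome itself, called core genes below, with 46 in the large and 31 in the small subunit. A further 9 were paralogues, 5 were other copies of core genes, and 1, Rps19bp1, shares only the name and encodes a partner of Rps19.

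Cardiomyocytes, the contractile cells of the heart, were isolated by Langendorff perfusion from mice of C57BL x FVB strain after 3 days on food containing doxycycline, and polyadenylated RNA was sequenced. The groups were MHC control (genotype label MHC, 2 libraries) and Rbfox2 OE (genotype label RbFox2, 2 libraries); RBFOX2 is an RNA-binding regulator of alternative splicing, and both groups received the diet. The series title concerns overexpression of a non-muscle RBFOX2 isoform and cardiac conduction in myotonic dystrophy. The alleles behind each genotype label, the promoter of the transgene, the number of animals per library, and the age and sex of the mice are not given in the sources used here.

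The table holds 1 pooled value per gene and group, in FPKM, a fragment count scaled for transcript length and library size, with the authors' bounds around it and no value per library. There is therefore no replicate spread and no test, every level below is the authors' pooled value, and the level of confidence of the bounds is not stated. Depth in reads is unknown. Differences are given as log2((Rbfox2 OE + 1)/(MHC control + 1)), called the log2 ratio, which understates the difference of low genes. Genes were compared where their mean reached 1 FPKM, which kept 11697, and their median log2 ratio was -0.062. Rbfox2 itself stood at 14.7 FPKM in control cells against 293 FPKM under overexpression, in the direction of the group labels; the value covers transgene and endogenous gene together.

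Ribosomal proteins are made in step with ribosomal RNA, to which they bind during assembly in the nucleolus, and each mature ribosome holds a single copy of nearly all of them, with the stalk proteins Rplp1 and Rplp2 as the known exception. Their messenger RNAs are abundant in most cells and often begin with a stretch of pyrimidines, the terminal oligopyrimidine tract, through which their translation follows growth signals. In striated muscle a paralogue of Rpl3, Rpl3l, takes the place of Rpl3 in part of the ribosomes.

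Nearly all core genes were moderately higher in Rbfox2 OE. The log2 ratio was above 0 for 76 of 77, where 46.2% of all genes compared were above 0 and 53.8% below, and the exception was Rpl4. The median log2 ratio was 0.53, a 1.45-fold difference, with quartiles at 0.42 and 0.62 and extremes at -0.13 and 1.02. The SD of the log2 ratio across the 77 genes was 0.21. All 77 had an estimate and a mean above 1 FPKM, so none was left out. They include Rpl13, whose bounds ran from 0 to 646 FPKM in the control and from 0 to 958 FPKM in Rbfox2 OE. The table gives its locus to 189 genes.

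Single genes seldom stood apart by their own bounds. A 1.5-fold difference was reached by 27 core genes, all higher, where 16.6% of the genes compared were higher and 22.1% lower. At 2-fold 1 core gene, Rps19, was higher and 0 were lower, where 6.97% of the genes compared were higher and 10% lower. The authors' bounds were separate for 2 core genes, Rps19 and Rpsa, both higher, where the bounds of 6.67% of the genes compared were separate and higher and of 9.33% separate and lower. The upper bound lay a median of 29.8% above the control value and 29.4% above the value in Rbfox2 OE, so a 1.5-fold difference usually left the bounds overlapping. The balance over all genes moved with the scaling: of those past 2-fold, 41% were higher as deposited and 53.7% after rescaling without mitochondrial genes and the 10 most abundant genes. The shared direction of the core genes is a description of these pooled values, since all of them come from the same libraries.

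**Figure D1:**
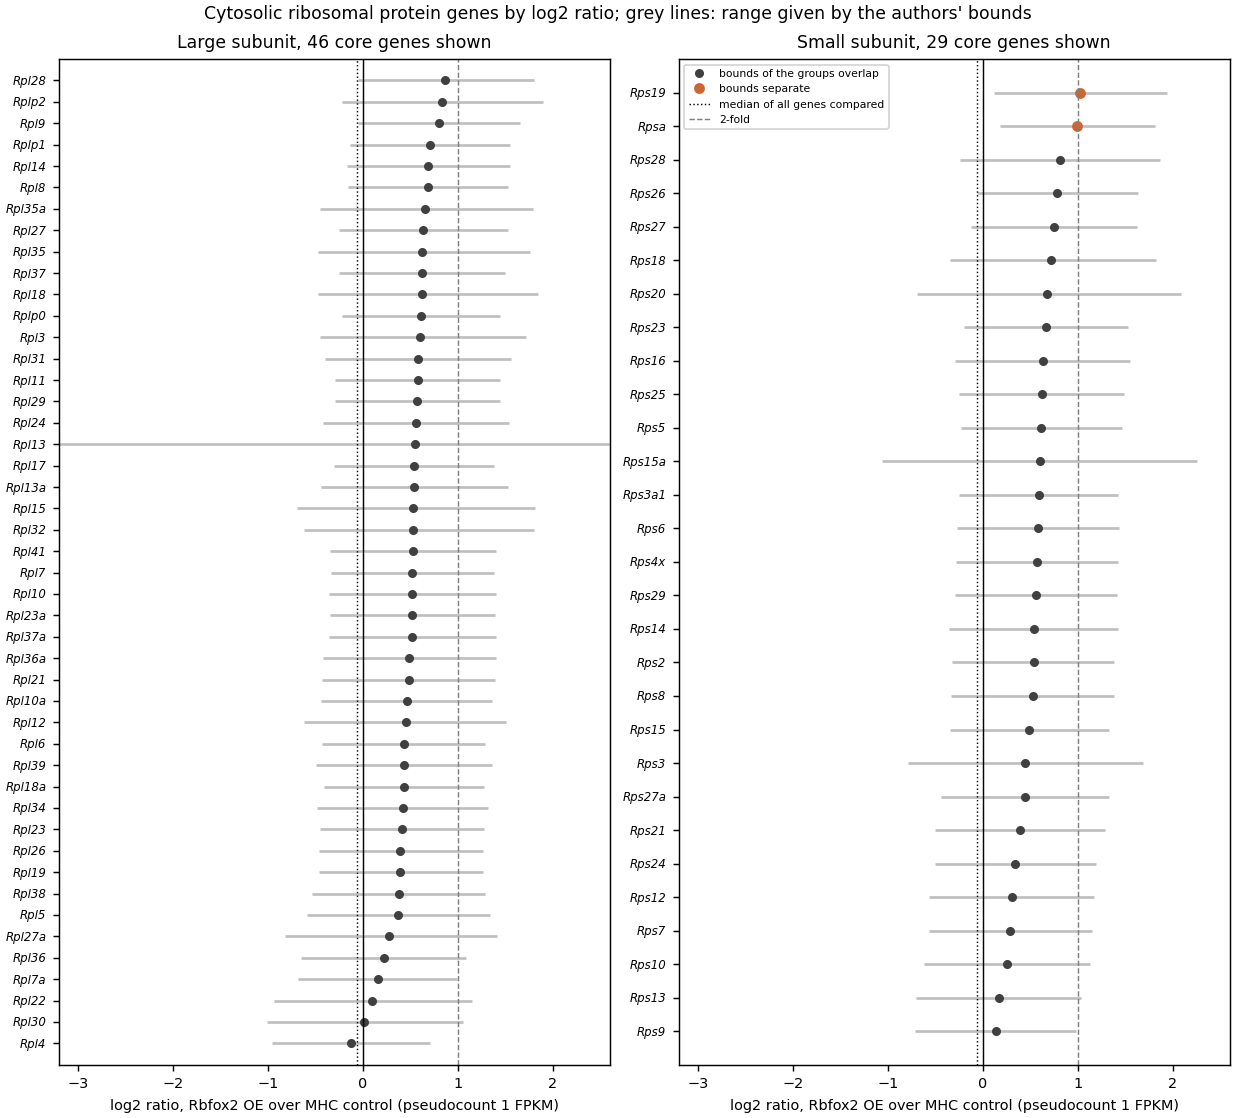
Log2 ratio between the groups, overexpression over control (x axis, pseudocount of 1 FPKM) for each of the 46 large subunit and 29 of the 31 small subunit core genes (y axis), with grey lines for the range that the nearest and farthest pair of the authors' bounds gives; the line of Rpl13 runs past the axis. All points but that of Rpl4 lie right of 0, and the bounds are separate for Rps19 and Rpsa, drawn in orange.

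Beside this difference of the core genes, markers of cell types also differed between the groups in the same pooled values. Cardiomyocyte markers were present at high levels in both groups, summing to 62739 FPKM in control cells against 39540.0 FPKM under overexpression, and of the 12 with an estimate in both groups 11 had a log2 ratio below 0, and the median of these 12 was -0.63; Pln, the inhibitor of the calcium pump, was the lowest at 2613 FPKM in control cells against 488 FPKM under overexpression. No estimate was given for Myh6 in both groups and Atp2a2 in the control, which were listed at 0. The sums of the cardiomyocyte markers are therefore unlike, since Atp2a2 enters only that of Rbfox2 OE. All 11 fibroblast markers had a log2 ratio above 0, and their sum went from 283 to 682 FPKM. The same held for all 10 endothelial markers, from 282 to 493 FPKM, all 12 macrophage and leukocyte markers, from 81.0 to 369 FPKM, and all 5 red blood cell markers, from 56.6 to 295 FPKM. For smooth muscle and pericytes 8 of 9 were above 0, and the sum went from 205 to 344 FPKM. No marker of these other cells was at 0 in either group. In such bulk libraries fewer cells of a type and less RNA per cell cannot be told apart. The part of these other cells in the levels of the ribosomal protein genes was not tested.

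Levels of the core genes differed widely among themselves and largely kept their order between groups. In the control they ran from 42.6 FPKM (Rpl39) over a median of 236 to 1072 FPKM (Rps24), and in Rbfox2 OE from 57.7 over 349 to 1361 FPKM, at the same genes. Across the 77 genes the log2 levels of the groups correlated with Pearson's r = 0.971 and Spearman's rho = 0.961, a description only, since the genes share their libraries. The 92 genes together took 4.38% of the summed FPKM in the control and 7.14% in Rbfox2 OE; these sums lack the genes that Cuffdiff left at 0 for too many fragments (status HIDATA, 30 rows in the control and 26 in Rbfox2 OE), none of them a ribosomal protein gene.

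**Figure D2:**
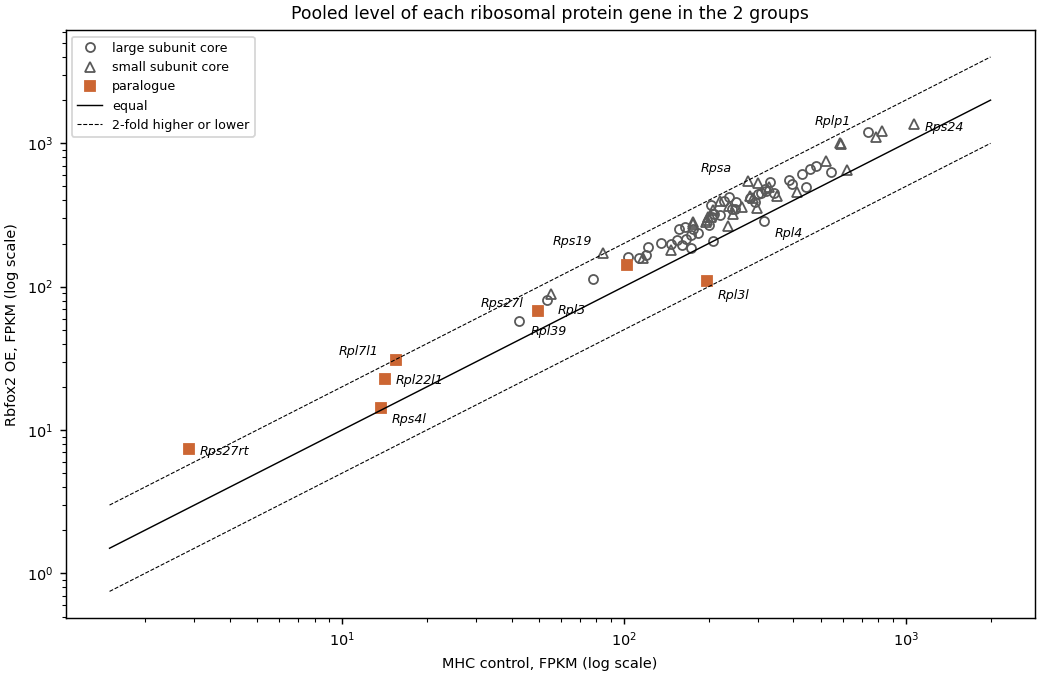
Pooled FPKM of each core gene (open circles, large subunit; open triangles, small subunit) and of the 7 paralogues with a mean of at least 1 FPKM (orange squares) in MHC control (x axis) and Rbfox2 OE (y axis), both on log scales, with lines at equal level and at a 2-fold difference. The core genes follow a band above the line of equal level, Rpl4 lies just below it, and Rpl3l lies near the line of a 2-fold lower level.

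The starts of the transcripts were searched for pyrimidine runs, which need not be terminal tracts. The longest run of C and T that begins with C was searched for in the first 30 bases of the annotated basic coding transcripts. Only the sequence in the sense of the transcript was read, and a run of at least 7 letters was counted. It was found for 34 of 77 core genes, or 44.2%, against 19.7% of the 11087 genes compared that have such a transcript. Annotated starts can lie some bases off the true start, and a window without a run says only that those letters are not in it. A run may also begin well inside the window, as at base 17 for Rps19, so the count is not one of terminal tracts. The starts printed here are those of the core genes with the highest log2 ratios (Rps19, Rpsa), the lowest (Rpl4) and the highest level (Rps24). Those of 2 others with long runs (Rplp1, Rpl32), and of Rpl3 and its muscle paralogue, are added. For each gene the coding transcript with the longest run is shown, so it need not begin where the gene does. That of Rps24 begins at 24490718, inside a gene that runs from 24487125. Sequences and positions are from GENCODE M21 on GRCm38, and capitals mark the counted run.
Rps19 (chr7:24884371-24884400, plus strand): ctcaaatgaaggccgaCTCCCCCagctcgc
Rpsa (chr9:120127689-120127718, plus strand): gaggCTTTTTCCggagcggaagttctccct
Rpl4 (chr9:64173375-64173404, plus strand): CTTTTCCTgtgggagcagccgggtagagag
Rps24 (chr14:24490718-24490747, plus strand): CTCTTTTCCTCCTCTCCagctccggcgccg
Rplp1 (chr9:61914513-61914542, minus strand): gatCTTTTCCTCagctgccgccaaggtgct
Rpl32 (chr6:115808718-115808747, minus strand): CTTCCTTCTTCCTCggcgctgcctacgagg
Rpl3 (chr15:80083377-80083406, minus strand): agggggcggagccatcacttggctttatat
Rpl3l (chr17:24727820-24727849, plus strand): agctctgtcatttgacctctggtgcctggt
Counted runs were found at both ends of the range. Rpsa had a run of 8 letters starting at base 5, and Rpl4 a run of 8 letters at base 1. They stood near the opposite ends of the core genes. Across the 77 core genes the length of the run and the log2 ratio gave Pearson's r = -0.12 and Spearman's rho = -0.13, as a description.

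In the small subunit, which binds the messenger RNA and reads its codons, all 31 core genes had a log2 ratio above 0, and the subunit's median was 0.57, with 14 past 1.5-fold. Rps19 (ENSMUSG00000040952, chromosome 7, 24884371 to 24889806, plus strand, protein-coding), needed for maturation of the small subunit and the first gene linked to Diamond-Blackfan anaemia, stood at 84.6 FPKM in control cells (58.1 to 111 by the authors' bounds) against 173 FPKM under overexpression (121 to 226). These bounds were 9.45 FPKM apart, and the log2 ratio of 1.02 was the highest of the core genes. Rpsa (ENSMUSG00000032518, chromosome 9, 120127689 to 120132369, plus strand, protein-coding), also known as the laminin receptor, stood at 275 FPKM in control cells (198 to 352 by the authors' bounds) against 549 FPKM under overexpression (398 to 700.2). Its log2 ratio was 0.995, just under 2-fold, and its bounds were 46.4 FPKM apart. The table gives the locus of Rpsa to 4 genes, and that of Rps19 to no other.

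All other small subunit genes had overlapping bounds. Rps28, of the small subunit head, stood at 299 FPKM in control cells against 524 FPKM under overexpression. Rps26, which contacts the messenger RNA where it leaves the ribosome, stood at 585 FPKM in control cells against 1011 FPKM under overexpression, a ratio of 1.73. Rps6, the classic substrate of S6 kinase, stood at 204 FPKM in control cells against 305 FPKM under overexpression, a log2 ratio of 0.58, close to the middle of the core genes.

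Differences were smaller for other genes of this subunit. Rps9 and Rps13 had log2 ratios of 0.14 and 0.17. The most abundant core gene, Rps24, stood at 1072 FPKM in control cells (765 to 1379.7 by the authors' bounds) against 1361 FPKM under overexpression (970.4 to 1751), a ratio of 1.27, and the next in the control were Rps29 at 827 and 1221 FPKM and Rps15 at 784 and 1102 FPKM, control first. Of the 14 listed proteins of the small subunit head, all had a log2 ratio above 0, and the median over the list was 0.59.

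In the large subunit, which joins the amino acids, 45 of 46 core genes had a log2 ratio above 0, and the subunit's median was 0.52, with 13 past 1.5-fold; 0 had separate bounds. Rpl28 was highest, at 205 FPKM in control cells (139 to 270.1 by the authors' bounds) against 374 FPKM under overexpression (260.0 to 487), a log2 ratio of 0.86. The acidic stalk, which recruits elongation factors to the ribosome, was higher throughout by its pooled values. Its anchor Rplp0 stood at 316 FPKM in control cells against 482 FPKM under overexpression, Rplp1 at 738 FPKM in control cells against 1199.9 FPKM under overexpression, and Rplp2 at 236 FPKM in control cells against 422 FPKM under overexpression. All 3 stalk genes passed 1.5-fold, with a median log2 ratio of 0.70, and the bounds of each overlapped.

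Rpl5 and Rpl11, which bind the smallest ribosomal RNA of the large subunit and can restrain Mdm2 when ribosome assembly is disturbed, had log2 ratios of 0.37 and 0.57. The 7 listed proteins around the exit of the peptide tunnel had log2 ratios between 0.39 (Rpl19) and 0.63 (Rpl35). Among them Rpl39, the least abundant core gene, stood at 42.6 FPKM in control cells against 57.7 FPKM under overexpression. Rpl41, which encodes the smallest ribosomal protein, stood at 386 FPKM in control cells against 555 FPKM under overexpression.

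Rpl4 was the 1 core gene with a lower value in Rbfox2 OE. This gene (ENSMUSG00000032399, chromosome 9, 64173375 to 64178666, plus strand, protein-coding), whose protein lines part of the peptide tunnel, stood at 315 FPKM in control cells (226 to 403 by the authors' bounds) against 288 FPKM under overexpression (207 to 369), a log2 ratio of -0.13. The bounds overlapped widely, and the log2 ratio was -0.065 relative to the median of all genes compared. Rescaling without mitochondrial genes and the 10 most abundant genes moved it to 0.028, but it raised all but the lowest genes by nearly the same amount and took the median of all genes compared to 0.068, so that Rpl4 stayed below it. Rpl4 holds 5 small nucleolar RNA genes, the most of any core gene, and the table gives its locus to 6 genes. Next to it among the large subunit genes were Rpl30, at 207 FPKM in control cells against 209 FPKM under overexpression, and Rpl22, at 173 FPKM in control cells against 186 FPKM under overexpression, both with overlapping bounds.

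The 16 core genes listed for Diamond-Blackfan anaemia, a human failure of red cell production caused by loss of a single copy of a ribosomal protein gene, all had a log2 ratio above 0, the highest being Rps19 at 1.02, with a median log2 ratio of 0.57 beside 0.53 for all core genes. Small nucleolar RNA genes lie inside 30 core genes in GENCODE M21, 58 in all; these hosts had a median log2 ratio of 0.52 and the other 47 core genes a median of 0.57.

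Rpl3 and its muscle paralogue Rpl3l lay on opposite sides of equal level by their pooled values. Rpl3, a large subunit protein that reaches toward the site of peptide bond formation (protein-coding, ENSMUSG00000060036, chromosome 15, 80077791 to 80091868, minus strand), measured 53.5 FPKM in control cells (32.5 to 74.5 by the authors' bounds) against 81.3 FPKM under overexpression (54.1 to 109), a log2 ratio of 0.60. Rpl3l, expressed mainly in heart and skeletal muscle (ENSMUSG00000002500, chromosome 17, 24727820 to 24736143, plus strand, protein-coding), stood at 198 FPKM in control cells (141 to 254 by the authors' bounds) against 110.4 FPKM under overexpression (78.5 to 142), a log2 ratio of -0.84. The value of Rpl3l was thus higher in the control and lower in Rbfox2 OE, against the direction of 76 core genes. Its bounds just overlapped, the lower bound of the control being 141 FPKM and the upper bound under overexpression 142 FPKM, so it is not counted as separate.

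As a share of the summed FPKM of both genes, Rpl3l made up 78.7% in the control (range from the bounds, 65.5 to 88.7%) and 57.6% in Rbfox2 OE (42.0 to 72.4%), with overlapping ranges. The sum of both was 251 FPKM in the control, beside a median of 236 FPKM for the core genes. In Rbfox2 OE the sum was 192 FPKM, beside a median of 349 FPKM. The pair as a whole was therefore 0.76 times the control level while the median core gene was 1.45 times. No 50-base sequence of the Rpl3l transcript occurs in Rpl3 or another annotated gene, whereas 85.6% of those of Rpl3 also occur in other genes, mainly the pseudogene Rpl3-ps1, and the assignment of such fragments was not tested.

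**Figure D3:**
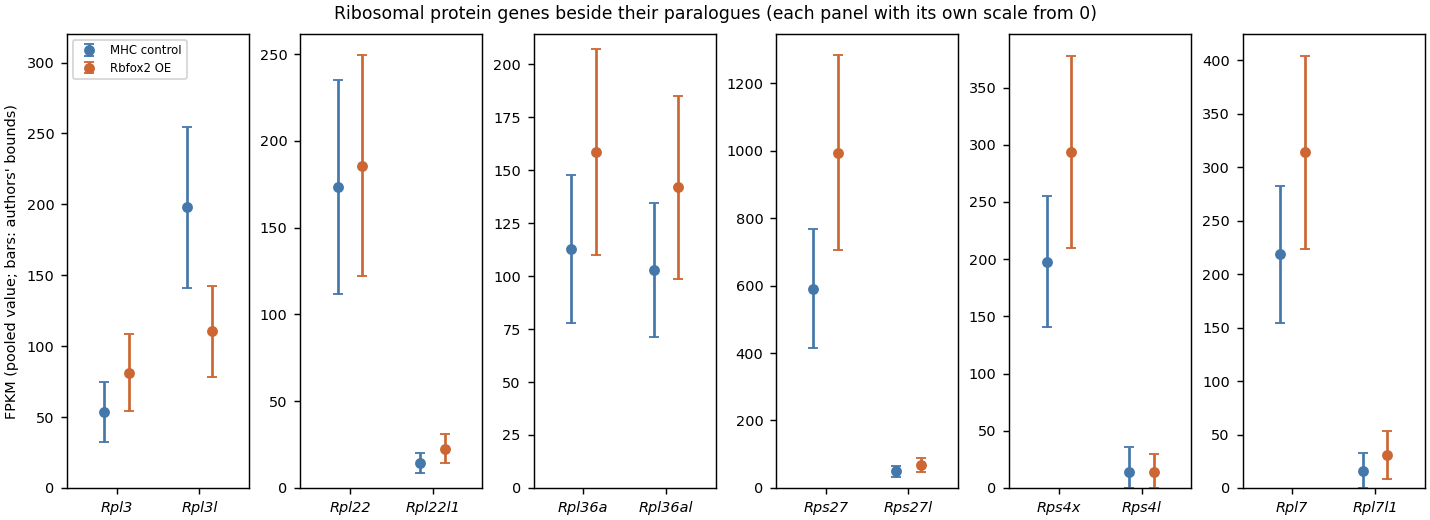
Pooled FPKM (y axis, from 0, with its own scale in each panel) of 6 core genes and a paralogue of each in MHC control (blue) and Rbfox2 OE (orange), with bars for the authors' bounds. Rpl3l is the paralogue with a lower value in Rbfox2 OE, 110.4 against 198 FPKM, while Rpl3 beside it is higher.

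Of the other paralogues, 6 could be compared, all with log2 ratios above 0, and 2 were too low. Rpl22l1 stood at 14.2 FPKM in control cells against 22.7 FPKM under overexpression, beside Rpl22 at 173 and 186 FPKM, so that its share of the pair was 7.59% and 10.9%, control first. Rpl36al, which encodes a protein nearly identical to that of Rpl36a, stood at 103 FPKM in control cells against 142 FPKM under overexpression and held 47.7% and 47.2% of its pair. Rps27l, a target of p53, stood at 49.7 FPKM in control cells against 68.2 FPKM under overexpression, and Rps27 at 591 FPKM in control cells against 994 FPKM under overexpression. Each of these had overlapping bounds, and the share of Rps27l in its pair was 7.76% and 6.42%.

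Rpl7l1, a nucleolar relative of Rpl7, stood at 15.6 FPKM in control cells (0 to 32.7 by the authors' bounds) against 30.6 FPKM under overexpression (8.43 to 52.9), a ratio of 1.97 with wide bounds, and the table gives its locus to 21 genes. Rps4l, annotated as a transcribed processed pseudogene, stood at 13.8 and 14.2 FPKM with lower bounds at 0. Rps27rt had a log2 ratio of 1.11, past 2-fold, at 2.86 FPKM in control cells (0 to 5.81 by the authors' bounds) against 7.35 FPKM under overexpression (2.58 to 12.1). Of its 50-base sequences 91.1% occur in Rps27, and fragments from those stretches cannot be told apart. Rpl39l and Rpl10l, known from the testis, were at 0.0601 and 0.0416 FPKM and listed at 0 in both groups, respectively.

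The 5 remaining copies, all annotated as processed pseudogenes, were low: Rpl37rt stood at 1.38 FPKM in control cells against 3.26 FPKM under overexpression, Rpl6l, Rps3a2 and Rps3a3 lay under 1 FPKM in both groups, and Rps12l1 was listed at 0. Rps19bp1 stood at 8.68 FPKM in control cells against 9.26 FPKM under overexpression, nearly level. In all, the mean reached 1 FPKM for 86 of the 92 genes. The 274 rows named -ps that were left out summed to 176 FPKM in control cells and 296 FPKM under overexpression, against 22441 and 31894 FPKM for the 92 genes. Most of that came from Rps2-ps10, at 103 and 193 FPKM.

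Ribosomal protein genes have many such copies, and this touches how their fragments were assigned. The longest annotated basic coding transcript of each core gene was taken, and shorter ones may have another share. For Rps15a it has 5179 bases, with 6.28% shared. A median of 43.9% of the 50-base sequences of such a core transcript also occur in another annotated gene, and the share is above 50% for 29 of the 77. Among the 48 with a lower share the median log2 ratio was 0.54 and 47 were above 0. The locus was given to no other gene for 33 core genes, all with a log2 ratio above 0 and with a median of 0.56. Across the 77 genes, the log2 ratio had a Spearman's rho of 0.031 with the mean level, 0.02 with transcript length, 0.07 with GC content and -0.049 with the shared fraction, as descriptions.

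Fau and Rack1, ribosomal proteins whose names fall outside the rule, lay near the middle of the core genes. Fau, made as a fusion with a ubiquitin-like protein, stood at 143 FPKM in control cells against 216 FPKM under overexpression, a log2 ratio of 0.60. Rack1, a signalling scaffold on the small subunit, stood at 235 FPKM in control cells against 354 FPKM under overexpression, a log2 ratio of 0.59. The bounds of both overlapped.

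Other parts of the translation machinery held genes on both sides of 0. Of 10 elongation genes, 7 had a log2 ratio above 0, and the median over the list was 0.34. Eef1a1, which brings aminoacyl-tRNA to the ribosome, stood at 289 FPKM in control cells (207 to 372 by the authors' bounds) against 878 FPKM under overexpression (609 to 1147), a ratio of 3.04, with separate bounds. Its muscle and nerve counterpart Eef1a2 stood at 1064 FPKM in control cells against 1348 FPKM under overexpression, with overlapping bounds. Eef1g, a subunit of the exchange factor of the same step, stood at 113 FPKM in control cells against 230.4 FPKM under overexpression, also with separate bounds. The bounds of Eef2k, the kinase that inactivates elongation factor Eef2, were separate in the other direction, at 19.7 FPKM in control cells against 6.71 FPKM under overexpression, while Eef2 stood at 636 FPKM in control cells against 803 FPKM under overexpression.

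Of 32 initiation genes, 20 had a log2 ratio above 0, and the median over the list was 0.16. At 2-fold 1 was higher and 1 lower, where 6.97% of the genes compared were higher and 10% lower. The poly(A)-binding protein Pabpc1 stood at 35.4 FPKM in control cells against 83.4 FPKM under overexpression and the scaffold Eif4g1 at 169 FPKM in control cells against 83.7 FPKM under overexpression, both with separate bounds. Eif4e, which binds the cap, stood at 43.4 FPKM in control cells against 21.9 FPKM under overexpression, with overlapping bounds. Of 54 ribosome assembly genes, 36 had a log2 ratio above 0, and the median over the list was 0.13. Nop58, a core protein of box C/D particles, and Tsr1, a small subunit assembly factor, were past 2-fold at ratios of 2.38 and 2.22 with overlapping bounds. Nop2 and Nip7 had separate bounds at log2 ratios of 0.88 and 0.84, with gaps of only 0.128 and 0.133 FPKM. In this list 2 of 54 genes were past 2-fold and 2 had separate bounds, all higher. Among all genes compared, 6.97% were past 2-fold and higher, and 6.67% had separate, higher bounds.

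The 14 genes of RNA polymerase I and its factors, which transcribe ribosomal RNA, split into 9 above 0 and 5 below, and the median over the list was 0.19. Taf1d stood at 5.33 FPKM in control cells against 17.4 FPKM under overexpression, whereas Taf1a stood at 18.9 FPKM in control cells against 6.28 FPKM under overexpression and the largest subunit, Polr1a, at 16.4 FPKM in control cells against 7.88 FPKM under overexpression; all 3 had separate bounds. Ribosomal RNA itself was not measured in these polyadenylated libraries. Among 14 compared regulators of ribosome synthesis, 9 had a log2 ratio below 0, and the median over the list was -0.56. At 2-fold 2 were higher and 1 lower, where 6.97% of the genes compared were higher and 10% lower. By separate bounds 2 were also higher and 1 lower, beside 6.67% and 9.33% of the genes compared. Myc, a transcription factor that drives ribosome production, stood at 3.60 FPKM in control cells (2.14 to 5.06 by the authors' bounds) against 10.7 FPKM under overexpression (6.89 to 14.4), while the mTOR inhibitor Tsc2 stood at 23.7 FPKM in control cells against 8.69 FPKM under overexpression, both with separate bounds. Mtor, its partner Rptor and Larp1, which binds pyrimidine tract messages, had log2 ratios of -0.83, -0.87 and -0.52, with overlapping bounds.

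Set beside other large complexes, without a test between lists, the cytosolic ribosomal proteins and the mitochondrial ribosomal proteins lay on opposite sides of 0. Of 77 mitochondrial ribosomal protein genes 16 had a log2 ratio above 0, and the median over the list was -0.31. At 2-fold 12 were lower and 0 were higher, where 10% of the genes compared were lower and 6.97% higher. The lowest, Mrps27, stood at 24.9 FPKM in control cells against 4.40 FPKM under overexpression. Proteasome genes were taken by symbol, so their list also holds the assembly factors Psmd5, Psmd9 and Psmd10, and Psmc3ip, which shares only the name. Of the 35 compared 30 were above 0, and the median over the list was 0.51, near that of the core genes. Their log2 ratios spread from -1.31 (Psmd1) to 1.48 (Psmd7). The bounds of 6 were separate and higher and of 1 separate and lower, beside 6.67% and 9.33% of all genes compared.

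**Figure D4:**
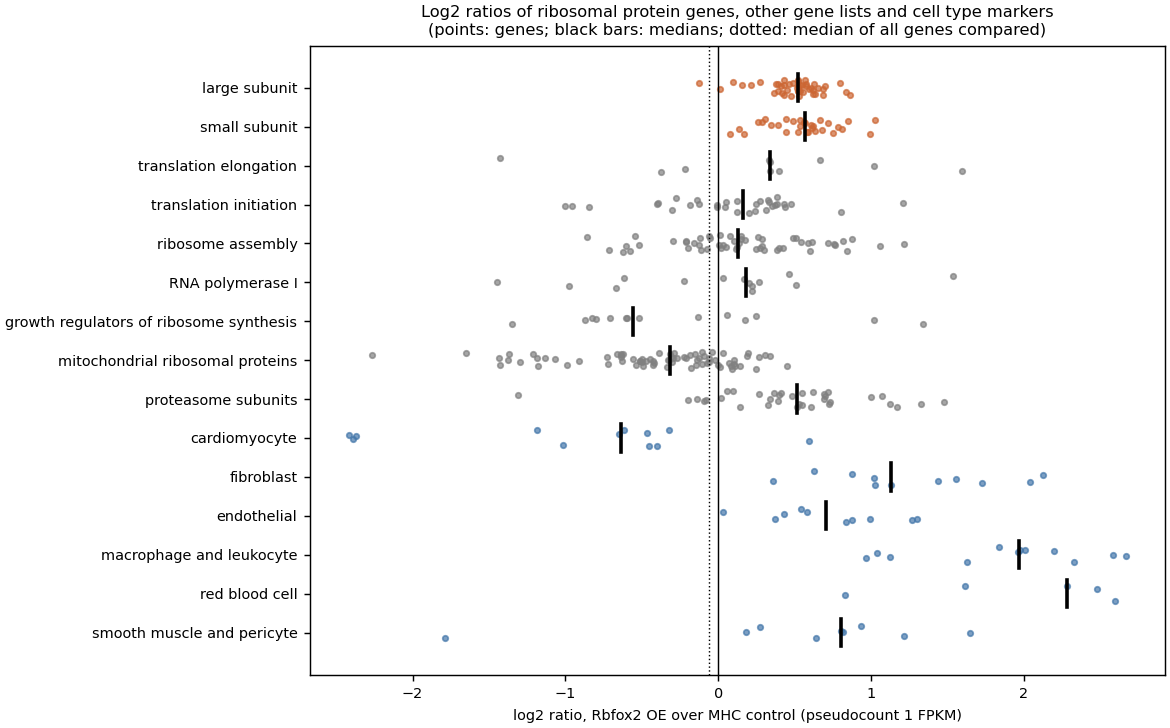
Log2 ratios between the groups, overexpression over control (x axis) for the core genes of each subunit (orange), other translation lists and complexes (grey) and markers of cell types (blue), 1 point per compared gene with an estimate, with black bars at the medians. The core genes form a narrow group around 0.52 to 0.57, the mitochondrial ribosomal proteins have a median of -0.31, and markers of cells other than cardiomyocytes lie mostly right of 0.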

How the data were processed

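The values deposited by the authors are FPKM, 1 per gene and group, each with bounds and an estimation status in the layout of Cuffdiff, per the file headers. The submitters' processing notes name STAR 2.4.2a, Cuffdiff 2.2.1 and the builds GRCm38 and mm10, without roles; the libraries were stranded TruSeq per the labels' protocols. How libraries were scaled, which annotation was counted and whether counting used strand are not given in the sources used here. Each value pools 2 libraries, so no test was run; columns of per-sample values left unused numbered 0.

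From these values log2 ratios with a pseudocount of 1 FPKM were computed (Python 3.11.15, pandas 2.3.3) after summing rows that share a name (110 names). Genes were counted at 1.5-fold, at 2-fold and by separate bounds among those with a mean of at least 1 FPKM. The functions were tested on simulated data. GENCODE M21 on GRCm38 gave positions and transcripts; 48053 of 48432 identifiers (99.2%) and all 92 of the ribosomal protein genes matched. The members and lists were chosen with earlier results of these data known. Genes named are the paralogues with their parents, the 5 highest, 5 lowest and 5 most abundant core genes, those past 2-fold or with separate bounds, the stalk, Rpl5, Rpl11, proteins outside the rule, and up to 3 genes with separate bounds of each other list, except a few genes not reported here, which remain in the counts and medians; further genes were named for their role or their values after these were seen. Other settings tried concerned the pseudocount, the filter, scaling, status, fold, repeated names and shared loci.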

Additional observations from a re-analysis of the deposited data

How the results depend on the processing

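No paired analysis was possible because both libraries of a group are pooled in 1 value, and for the same reason no library could be left out in turn; how far the libraries of a group differ is unknown and limits every value. Rescaling without mitochondrial genes and the 10 most abundant genes raised Rbfox2 OE by 0.16 on the log2 scale, turned the median of all genes compared from -0.062 to 0.068 and the log2 ratio of Rpl4 to 0.028, and gave core genes a median of 0.69, 77 above 0, 54 past 1.5-fold, 4 past 2-fold and 9 with separate bounds. The matching shares of all genes compared were 54.8%, 21.8%, 9.06% and 8.72%, all on the higher side. Relative to all genes the core median was then 0.62. Centring on the median gene gave core genes a median of 0.60, 43 past 1.5-fold and 2 past 2-fold, where 18.8% and 7.87% of all genes were higher, and turned Rpl39l, near 0 FPKM, to 0.037. A pseudocount of 5 left 0 core genes past 2-fold, where 2.6% of all genes were higher, and the 1.5-fold threshold gave 27 higher. Core genes with a locus of their own, 33 genes, gave 33 above 0, 12 past 1.5-fold and 1 with separate bounds, since fewer genes entered. Those with under 50% shared 50-base sequences, a setting added after seeing the data, gave 47 of 48 above 0. Under the filters on low values, the status filter and rows kept apart, the core counts and median were as reported. No core gene lay below 42.6 FPKM or lacked an estimate, so the filters on low values and status could not change them. Of 292 alternative log2 ratios of named genes, 288 stayed inside the range of the bounds without a change of sign. These ranges are far wider than the shifts that the settings give most genes. The count could therefore hardly differ, and no conclusion is drawn from it.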

Other observations

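The ribosomal protein genes are scattered over the genome. Rps2 (24718116 to 24721929) and Rpl3l (24727820 to 24736143) lie on the plus strand of chromosome 17, 5891 bases apart. Rps2, a small subunit protein at the entry of the messenger RNA channel, had a log2 ratio of 0.54 and Rpl3l -0.84, on opposite sides of 0. Chromosome 7 holds 14 of the 77 core genes, the most of any chromosome.

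Pyrimidine runs were also looked at outside the ribosomal protein genes. Among genes compared that are no ribosomal protein gene, the 2153 with a run of at least 7 letters in the first 30 bases had a median log2 ratio of -0.055, and the 8850 without it had -0.076. A run of at least 10 letters, in 635 genes, went with a median of -0.045. The medians of these groups thus lay near the median of all genes compared.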
